A study of Mus musculus with 8 samples.

Results

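Odf1, Smcp and Tppp2 are genes of the late spermatid whose proteins serve the sperm tail. Their transcripts were described here in testes of mice with or without an active TENT5C enzyme, after busulfan or after its vehicle. The members were all transcript contigs whose gene symbol in the deposited tables reads odf1, smcp or tppp2 when written in lower case. A contig is an annotated transcript to which reads were aligned. The genes were chosen by values measured here, namely reads that persisted after busulfan or tails that were short in busulfan-treated mutant testes, so those measurements are given as a description, with no test. That choice set no threshold. The rule found 4 contigs of 3 genes among 2783 contigs, and these held 4234 of 621202 reads. Odf1 and Tppp2 had 1 contig each, with 1371 and 284 reads, and Smcp had 2, with 1657 reads (Smcp-201) and 922 reads (Smcp-202).

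The groups were wild-type mice (Tent5c wt/wt, wt) and mice with a catalytically dead TENT5C in both alleles (Tent5c dcat/dcat, dcat). Each genotype received an intraperitoneal dose of busulfan at 20 mg/kg or its vehicle of DMSO and water, and whole testes of adult mice were taken 4 weeks later. There were 2 mice and 2 libraries per group, 8 libraries in all, and the mutant is a C57BL/6 strain whose TENT5C lacks the activity in every cell. Poly(A) RNA was sequenced directly on Nanopore chips, so that each read is 1 RNA molecule with its own poly(A) tail estimate in nucleotides (nt).

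Sperm tails are built in haploid spermatids. Outer dense fibres run along the microtubule doublets of the axoneme, a mitochondrial sheath wraps the midpiece and a fibrous sheath wraps the principal piece. Many transcripts for these parts are made early in spermiogenesis, stored, and translated later, and the poly(A) tail is known to take part in the storage and activation of messenger RNAs in germ cells. TENT5C is a cytoplasmic poly(A) polymerase. Busulfan, an alkylating agent, is toxic to the dividing germ cells, and the later stages are then lost as they are no longer replaced.

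Odf1 encodes a main structural protein of the outer dense fibres. Its contig (ENSMUST00000081966) lies on the plus strand of GRCm38 at chr15:38219203-38226735, with 2 exons, 1105 nt in all and a 3′ untranslated region of 131 nt. Smcp encodes a cysteine-rich protein of the capsule around the midpiece mitochondria, and its messenger is a classic example of a stored spermatid transcript. Smcp-201 (ENSMUST00000098888, chr3:92583867-92588997, minus strand) and Smcp-202 (ENSMUST00000194965, chr3:92583867-92586204) differ in their first exon. They share the last exon at chr3:92583867-92584558, which holds the coding sequence and the 3′ untranslated region of 240 nt. A read that did not reach the first exon could therefore have been given to either of them. Tppp2 encodes a tubulin-binding protein of the flagellum, and its contig (ENSMUST00000008957) lies on the plus strand at chr14:51918425-51920700, with 4 exons and a 3′ untranslated region of 88 nt.

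The last 30 bases before the annotated end are shown. Where the tails of single reads start was not compared with that end. Both Smcp contigs end at the same base. The sequences are in the sense of the transcript, 5′ to 3′, from GENCODE vM21 on GRCm38, and capitals mark the last match to the poly(A) signal AATAAA.
Odf1, chr15:38226706-38226735: gtaggaaacttaatacagaattgcatctga
Smcp, chr3:92583867-92583896: atagcaaagaaataaaagagcaAATAAAaa
Tppp2, chr14:51920671-51920700: taggaaatAATAAAcgatgtgtgtgcagca
In Smcp the capitals start 8 nt before the end, with a further match before them, and in Tppp2 they start 22 nt before it. The Odf1 window held neither AATAAA nor ATTAAA. Of 2738 contigs with a sequence in that annotation, 55.6% held AATAAA and 14.2% held ATTAAA in their last 30 bases on the transcript strand, and 68.0% held at least 1 of them. TTTTAT, the core letters of a cytoplasmic polyadenylation element, was in the last 100 bases of 10.2% of these contigs and of 0 of the members. A match of letters is a description of the annotated end and not a site in use.

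Library depth ran from 29574 to 129074 reads, and the dcat vehicle libraries were the shallowest and the deepest. The late spermatid markers read here were 7 genes, among them the protamines Prm1 and Prm2 and the transition proteins Tnp1 and Tnp2. Their list of 9 symbols included older names of the same genes. These markers held 8.16% to 10.1% of reads in the vehicle libraries. After busulfan they held 0.356% and 0.400% in wt and 1.58% and 3.17% in dcat, and Prm3 and a minor Prm1 contig were at 0 in wt busulfan replicate 1. Leydig cell markers (9 of 11 genes read) held 0.401% to 0.724% after vehicle, 4.53% and 4.93% in wt after busulfan and 2.85% and 2.36% in dcat after busulfan. For Sertoli cell markers (7 of 12 genes read) the same ranges were 0.356% to 0.585%, 3.54% and 3.46%, and 3.23% and 2.28%. Most Leydig marker reads after busulfan were of Insl3, with 2082 of 2989 and 4197 of 5696 in wt. In dcat Insl3 gave 930 of 1750 and 1329 of 2285. The study reports Insl3 as a TENT5C target that is lower in dcat after busulfan, so this sum is not a measure of Leydig cells alone. These shifts in marker reads run alongside every busulfan comparison below, and in whole testes fewer cells of a type cannot be told apart from less RNA per cell. The 3 genes are named as late spermatid genes, but their reads did not follow the late spermatid markers after busulfan in wt testes, as given below. Reads that persisted after busulfan were part of how the genes were chosen. The genes are called here by their names.

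In vehicle-treated wt testes the tails of all members were long, with group means from 155 nt to 179 nt. Odf1 reads averaged 182 nt and 177 nt in the 2 libraries (group mean 179 nt ± 3.14 SD, n = 2). This was longer than the mean of 95.7% of the 1475 contigs with at least 10 reads in both wt vehicle libraries, whose median was 148 nt. Smcp-201 averaged 159 nt and 160 nt, Smcp-202 averaged 159 nt and 162 nt, and Tppp2 averaged 158 nt and 152 nt. Their group means lay above those of 71.0%, 73.1% and 63.1% of the same contigs. The distributions had a single main peak, with 33.9% to 39.0% of Odf1 reads and 28.9% to 37.5% of reads of the Smcp contigs in the bin from 150 nt to 180 nt.

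Loss of the catalytic activity in vehicle-treated mice went with no change of the members that passed a test. This contrast was not used to choose them, and they were tested in it. Read levels are given as CPM, the reads of a contig scaled to a common library size after TMM normalization, and levels of different contigs are not compared. Odf1 had 3428 and 3961 CPM in wt and 3485 and 2972 in dcat, and the groups overlapped. The log2 fold change was -0.20 (SE 0.34). Smcp-201 had 4029 and 3761 CPM in wt and 2356 and 3235 in dcat, the only member whose groups did not overlap, with a log2 fold change of -0.46 (SE 0.34). Smcp-202 had 1336 and 2988 in wt and 2223 and 2125 in dcat, and its log2 fold change was -0.01 (SE 0.37). Tppp2 had 562 and 572 in wt and 398 and 631 in dcat, and its log2 fold change was -0.06 (SE 0.42). In edgeR's quasi-likelihood test 0 of 4 members passed an adjusted p of 0.05, as did 0% of the 2783 contigs. At an unadjusted p under 0.05, 0 of 4 members passed with edgeR and 0 of 4 with DESeq2, and over all contigs 65 and 19 did. Groups lay apart with dcat below wt in 13.3% of all contigs.

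The tails of no member passed the test after vehicle either. Odf1 reads averaged 167 nt and 168 nt in dcat against 182 nt and 177 nt in wt, a difference of -11.42 nt (SE 10.5), with the 2 groups apart. Smcp-201 averaged 149 nt and 156 nt in dcat, a difference of -7.21 nt (SE 8.59). Smcp-202 averaged 156 nt and 159 nt, a difference of -2.92 nt (SE 7.48). Tppp2 averaged 166 nt and 147 nt, a difference of 1.54 nt (SE 9.56) with overlapping groups, and the dcat replicate 1 value came from 12 reads. Both dcat libraries thus lay below both wt libraries in 3 of 4 members, which are 2 genes, against 10.3% of the 720 contigs with enough reads. None of these differences passed limma's test (adjusted p = 0.990 for each member), and 0 of 4 passed at an unadjusted p under 0.05. That test shares its variance over groups and contigs. The replicates of Odf1 itself had SDs of 0.774 nt in dcat and 3.14 nt in wt. Over all 720 contigs 0.139% were called. The equal-variance test of the study's methods gave 1 of 4 members, Odf1, at an unadjusted p under 0.05 and 0 after adjustment. Limma fitted on only the 4 vehicle libraries also gave 1 of 4 and 0 after adjustment. In the class of short tails, from 30 nt to 120 nt, Odf1 had 6.21% and 6.86% of reads in wt and 16.2% and 12.6% in dcat. The Wilson 95% intervals of wt replicate 2 (4.43% to 10.5%) and dcat replicate 1 (10.4% to 24.4%) overlapped. The median Odf1 tail differed by less, at 177 nt and 175 nt in wt and 174 nt and 175 nt in dcat.

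**Figure D1:**
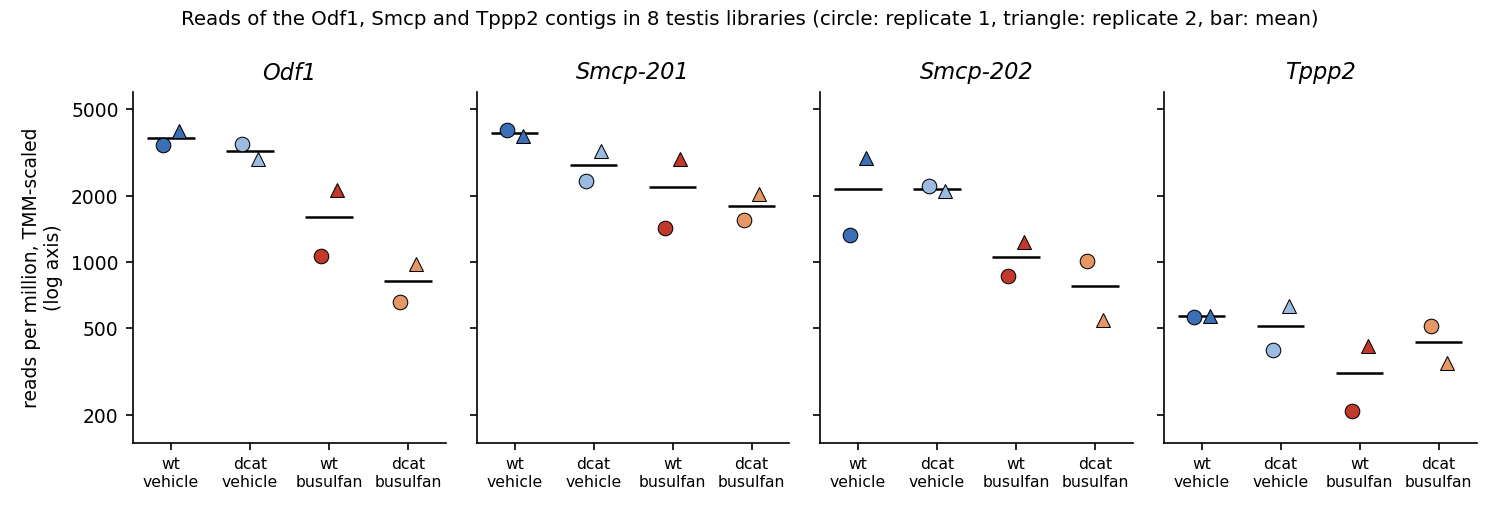
CPM (TMM-scaled, log axis) of the Odf1, Smcp-201, Smcp-202 and Tppp2 contigs in the 4 groups, with a circle for replicate 1, a triangle for replicate 2 and a bar for the mean of both. The Odf1 mean goes from 3695 in wt vehicle to 818 in dcat busulfan, while Tppp2 stayed between 209 and 631 in all 8 libraries.

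After busulfan the reads of the members were lower in wt testes than after vehicle, with log2 fold changes from -1.19 to -0.81. The choice of the genes used this comparison. Odf1 had 1073 and 2137 CPM after busulfan, from 82 and 227 reads, against 3428 and 3961 after vehicle (log2 fold change -1.19, SE 0.34). Smcp-201 had 1440 and 2966 (log2 fold change -0.81, SE 0.34) and Smcp-202 had 864 and 1243 (log2 fold change -1.04, SE 0.38). Tppp2 had 209 and 414, from 16 and 44 reads (log2 fold change -0.83, SE 0.42). All 4 contigs were lower in both busulfan libraries than in both vehicle libraries, as were 43.3% of all contigs, and replicate 1 was the lower of the busulfan libraries for each. Within the first multiplexed library the log2 fold changes of Odf1, Smcp-201, Smcp-202 and Tppp2 were -1.68, -1.48, -0.63 and -1.42, and within the second they were -0.89, -0.34, -1.27 and -0.47. Single libraries decided much of the size. Without wt busulfan replicate 1 the values were -0.79 for Odf1, -0.39 for Smcp-201 and -0.45 for Tppp2, and without wt busulfan replicate 2 they were -1.78, -1.43 and -1.43. Without wt vehicle replicate 2 that of Smcp-202 was -0.06.

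In dcat testes the log2 fold changes ran from -1.96 for Odf1 to -0.36 for Tppp2. Odf1 had 658 and 978 CPM, from 41 and 90 reads, against 3485 and 2972 after vehicle (log2 fold change -1.96, SE 0.36). Smcp-202 was next, with 1012 and 543 after busulfan (log2 fold change -1.50, SE 0.39). Smcp-201 had 1557 and 2043 (log2 fold change -0.65, SE 0.35). Tppp2 had 514 and 348, overlapping its vehicle values of 398 and 631 (log2 fold change -0.36, SE 0.42). The groups were apart for the other 3 contigs, as for 37.5% of all contigs in that direction. Without dcat vehicle replicate 2 the Tppp2 value turned to 0.17 and that of Smcp-201 was -0.31, and without dcat busulfan replicate 2 that of Tppp2 was -0.09.

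Between genotypes after busulfan, Odf1 had fewer reads in dcat. The values of 658 and 978 CPM lay below the wt values of 1073 and 2137, for a log2 fold change of -0.97 (SE 0.36). Smcp-201 (-0.29, SE 0.34), Smcp-202 (-0.47, SE 0.39) and Tppp2 (0.41, SE 0.42) overlapped between genotypes. Odf1 was the only member with the groups apart, as were 14.4% of all contigs with dcat below wt. Without wt busulfan replicate 2 the Odf1 value was -0.38 and that of Smcp-201 turned to 0.33. Leaving out 1 busulfan library moved Smcp-202 between -0.96 (without dcat replicate 1) and -0.07 (without dcat replicate 2), and Tppp2 between 0.04 (without wt replicate 1) and 1.02 (without wt replicate 2). The order of Odf1 levels was thus wt vehicle, dcat vehicle, wt busulfan and dcat busulfan, and the first pair of neighbours overlapped.

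The other genes of the sperm tail had far larger decreases in wt testes. Lists of outer dense fibre and head-tail coupling genes, midpiece genes, fibrous sheath genes and axoneme or tubulin-binding genes covered 91 contigs of 64 genes, with the members left out. The lists were chosen with earlier results of these data known. The authors kept contigs with at least 10 reads in both replicates of a group, and some reached that only after vehicle. Cfap276, with 37 and 23 reads in wt after vehicle and 0 and 0 after busulfan, is such a contig. For these a fall with busulfan was partly built in. After busulfan in wt, 87 of 91 contigs were lower in edgeR's test (adjusted p under 0.05) and 0 were higher, against 38.3% and 35.4% of all contigs. Their median log2 fold change was -4.10, or -3.87 with the 6 contigs at 0 reads in both wt busulfan libraries set to their bound of 3 reads per library, beside 0.09 over all contigs. The values of Odf1, Smcp-201, Smcp-202 and Tppp2 lay above those of 85, 88, 87 and 88 of the 91 contigs. As the members were chosen for reads that persisted, this is a description of that choice, and the order was taken with all libraries, although the members' values move when 1 library is left out.

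All 16 contigs of the outer dense fibre and coupling list were lower in wt after busulfan, with a median log2 fold change of -4.00. Spata6, needed for the connecting piece between head and tail, had 43 and 77 reads after vehicle and 0 and 2 after busulfan. Odf2, another structural protein of the outer dense fibres, had 30 and 30 reads after vehicle and 0 and 3 after busulfan. Oaz3, a testis antizyme that occurs in the sperm tail, kept more, with 160 and 114 reads of its main contig after vehicle and 49 and 158 after busulfan (log2 fold change -1.13, adjusted p = 0.0159, but 0.405 without wt vehicle replicate 1 and 0.233 without wt busulfan replicate 1). On this scale Odf1 at -1.19 lay near Oaz3.

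In the midpiece list 18 of 20 contigs were lower in wt (median -4.01, or -3.54 with 2 contigs at their bound). Gpx4, the selenoenzyme that is also a structural part of the mitochondrial capsule, changed by -2.50 on the log2 scale (adjusted p = 1.79e-05), and Cox8c, the testis form of a cytochrome c oxidase subunit, by -4.09 (adjusted p = 5.58e-07). Vdac2, a channel of the outer mitochondrial membrane, had a value of -0.65 (adjusted p = 0.119).

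In the fibrous sheath list 20 of 20 contigs were lower (median -4.64, or -4.12 with 2 contigs at their bound). They included Akap4, the main anchoring protein of the sheath (-4.05), and the sperm glycolytic enzymes Ldhc (-4.61), Gapdhs (-4.67) and Pgk2 (-2.28). In the axoneme and tubulin-binding list 33 of 35 contigs were lower (median -3.58, or -3.52 with 2 contigs at their bound). Meig1, which takes part in cargo transport along the manchette, changed by -4.19, and the tubulin Tubb4b by -1.79. The near-identical tubulins Tuba3a (-3.34) and Tuba3b (-3.28) can take each other's reads, and their values are uncertain.

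**Figure D2:**
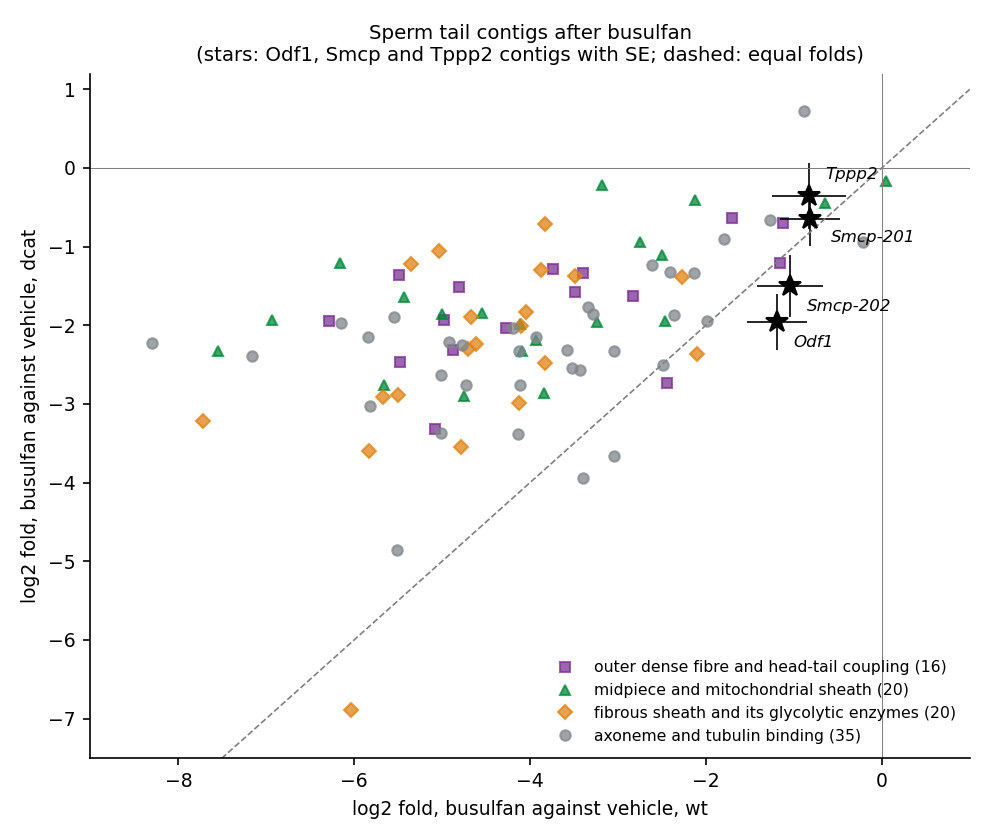
Log2 fold change of read counts, busulfan against vehicle, in wt (horizontal) and dcat (vertical) for the 91 contigs of the sperm tail lists and, as stars with SE bars, the 4 contigs of Odf1, Smcp and Tppp2. Most list contigs lie left of -2 on the horizontal axis and above the dashed line of equal folds, while the stars lie between -1.19 and -0.81 on the horizontal axis and on both sides of that line.

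In dcat testes the distance between the members and the lists was smaller. Of the 91 contigs 76 were lower after busulfan and 0 higher, against 31.4% and 31.3% of all contigs, with a median log2 fold change of -1.99 (all contigs 0.14). Odf1, at -1.96, lay in the middle of the lists, with 44 contigs above it and 47 below. Smcp-202 lay above 65 of the 91, Smcp-201 above 85 and Tppp2 above 88. By list, 14 of 16, 15 of 20, 16 of 20 and 31 of 35 contigs were lower, in the order of the lists above. Without dcat vehicle replicate 2, the deepest library, 35 of the 91 contigs were called.

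Compared directly between genotypes after busulfan, 25 of the 91 contigs, from 21 genes, were higher in dcat and 0 lower (5.39% and 0.431% of all contigs), with a median of 1.81, or 1.57 with 6 contigs at their bound (all contigs 0.20). The members had values from -0.97 to 0.41, and all 91 contigs lay above Odf1. This comparison and the one within wt share the wt busulfan libraries. By the rule for named genes, those with the largest fitted change among the called contigs are named. They were Cfap276 (0 and 0 reads in wt, 2 and 9 in dcat), Tbc1d21 (0 and 0, 1 and 8), Spem1 (1 and 1, 20 and 32), Spaca9 (1 and 0, 1 and 19) and Spata6 (0 and 2, 8 and 26). The numbers of reads behind these changes were small, and of these 5 contigs Spem1 alone was called without each of the 4 busulfan libraries in turn. Better covered were Ldhc, with 17 and 35 reads in wt and 44 and 175 in dcat (log2 fold change 2.23, adjusted p = 0.0033), and Meig1, with 15 and 27 against 23 and 110 (1.81, adjusted p = 0.0215). Ldhc was not called without wt busulfan replicate 1 or dcat busulfan replicate 2, and Meig1 was called without dcat busulfan replicate 1 but not without any of the other 3. The late spermatid markers were also higher in dcat, at 1.58% and 3.17% of reads against 0.356% and 0.400%, and their part in the result was not tested. The count of 25 was 7 with DESeq2, 1 without wt busulfan replicate 1, 4 without wt busulfan replicate 2, 2 without dcat busulfan replicate 2 and 44 without dcat busulfan replicate 1. An interaction of genotype and busulfan in read counts was called for 3 of the 91 contigs, all with a higher genotype effect after busulfan (0.323% of all contigs), and for 19 with the multiplexed library as a block. That count of 3 was 0 without wt busulfan replicate 2, 1 without either wt vehicle library, wt busulfan replicate 1 or dcat busulfan replicate 2, 22 without dcat vehicle replicate 2 and 38 without dcat busulfan replicate 1.

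Set against the late spermatid markers of the same library, the members were highest in wt after busulfan. The choice of the genes used reads that persisted after busulfan, so these ratios describe that choice. Odf1 had 3.91 and 3.82 reads per 100 marker reads in wt after vehicle, 4.35 and 3.001 in dcat after vehicle, 34.9 and 49.1 in wt after busulfan and 4.21 and 2.94 in dcat after busulfan. The ratio after busulfan was thus 8.93 and 12.9 times that after vehicle within the 2 multiplexed libraries in wt, and 0.969 and 0.979 times in dcat. Tppp2 had 0.640 and 0.551 in wt after vehicle and 6.81 and 9.52 after busulfan, 10.6 and 17.3 times as much. In dcat it had 0.497 and 0.637 after vehicle and 3.29 and 1.04 after busulfan, 6.62 and 1.64 times as much. Smcp-201 went from 4.59 and 3.63 to 46.8 and 68.2 in wt and from 2.94 and 3.27 to 9.97 and 6.14 in dcat. Smcp-202 went from 1.52 and 2.88 to 28.1 and 28.6 in wt and from 2.78 and 2.15 to 6.47 and 1.63 in dcat. In dcat after busulfan Smcp-201 and Tppp2 thus also lay above all 4 vehicle libraries, while Odf1 and Smcp-202 overlapped them. For all 4 contigs both wt busulfan libraries were above the other 6. In wt the markers themselves went from 8.93% and 10.1% of reads after vehicle to 0.356% and 0.400% after busulfan. Any contig that fell by less than the markers has a higher ratio there. The share of all contigs with such a ratio was not counted. The wt busulfan ratios rest on 235 and 462 marker reads.

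**Figure D3:**
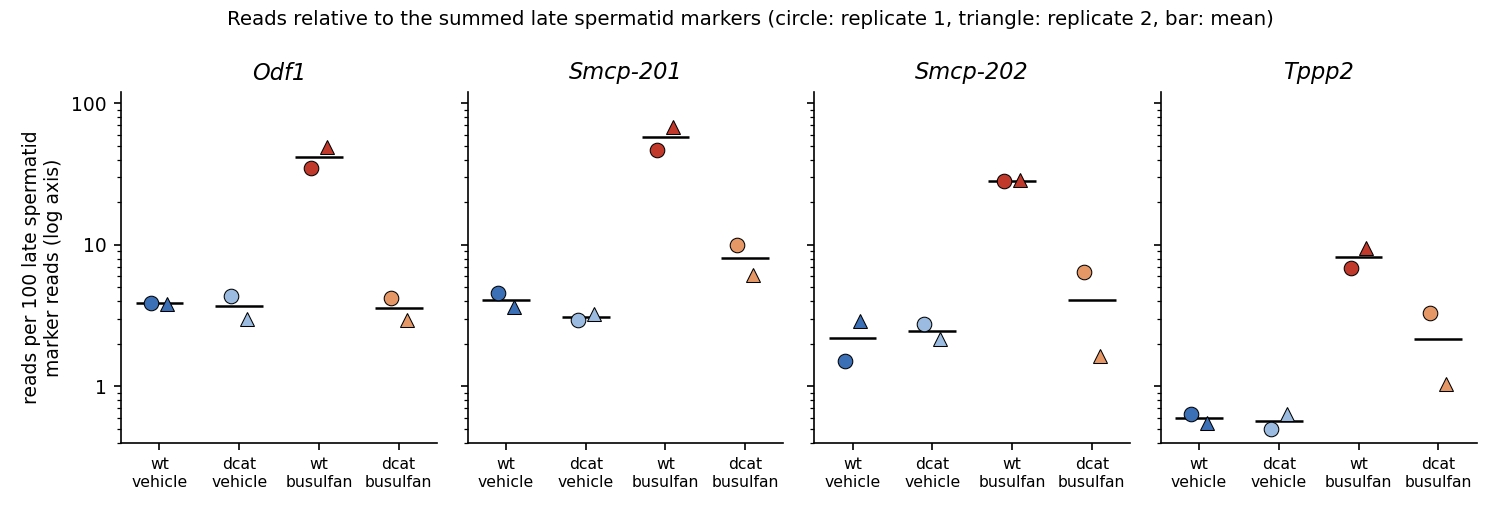
Reads of each contig per 100 reads of the summed late spermatid markers (log axis), by group, with a circle for replicate 1, a triangle for replicate 2 and a bar for the mean. The wt busulfan libraries lie above the other 6 libraries in every panel, and Odf1 in dcat busulfan (4.21 and 2.94) lies at its vehicle level. The genes were chosen for reads that persisted after busulfan, and the markers held their smallest share of reads in wt busulfan.

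The tails of the members changed with busulfan in different ways in wt. Those of Odf1 were longer, averaging 185 nt and 191 nt (group mean 188 nt ± 4.44 SD, n = 2) against 182 nt and 177 nt after vehicle, a difference of 8.56 nt (SE 10.03). Its distribution spread to both sides. After busulfan 41.5% and 47.6% of Odf1 reads had tails over 210 nt (Wilson 95% intervals from 31.4% to 52.3% and from 41.2% to 54.1%), against 19.2% and 18.1% after vehicle. Short tails of 30 nt to 120 nt had a larger share too, at 18.3% and 20.3% against 6.21% and 6.86%. The class between, from 120 nt to 210 nt, went from 74.6% and 74.7% to 40.2% and 32.2%. The Odf1 group mean lay above that of 98.8% of the 1604 contigs with enough reads in wt after busulfan, whose median was 120 nt, and 3.98% of the 527 contigs tested had both busulfan libraries above both vehicle libraries.

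The Smcp tails went the other way. Smcp-201 averaged 131 nt and 118 nt after busulfan against 159 nt and 160 nt after vehicle, a difference of -34.85 nt (SE 8.26). Smcp-202 averaged 126 nt and 121 nt against 159 nt and 162 nt, a difference of -36.97 nt (SE 7.29). Short tails took 46.4% and 56.8% of Smcp-201 reads after busulfan and 15.9% and 15.6% after vehicle, while those over 210 nt stayed at 11.8% and 11.1% against 9.13% and 9.89%. Tppp2 averaged 144 nt and 150 nt against 158 nt and 152 nt, a difference of -8.10 nt (SE 10.53), and its short-tail share was 25% and 29.5% against 20.7% and 25%. The groups were apart with busulfan below vehicle in these 3 contigs, as in 63.2% of the contigs tested. Over all 527 contigs the median difference was -19.93 nt, and the mean over all reads of a library was 112 nt and 115 nt after busulfan against 139 nt and 141 nt after vehicle. With each library centred on its own median contig, the wt differences were 31.77 nt for Odf1, -11.64 nt for Smcp-201, -13.76 nt for Smcp-202 and 15.12 nt for Tppp2, so that Tppp2 changed sign.

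**Figure D4:**
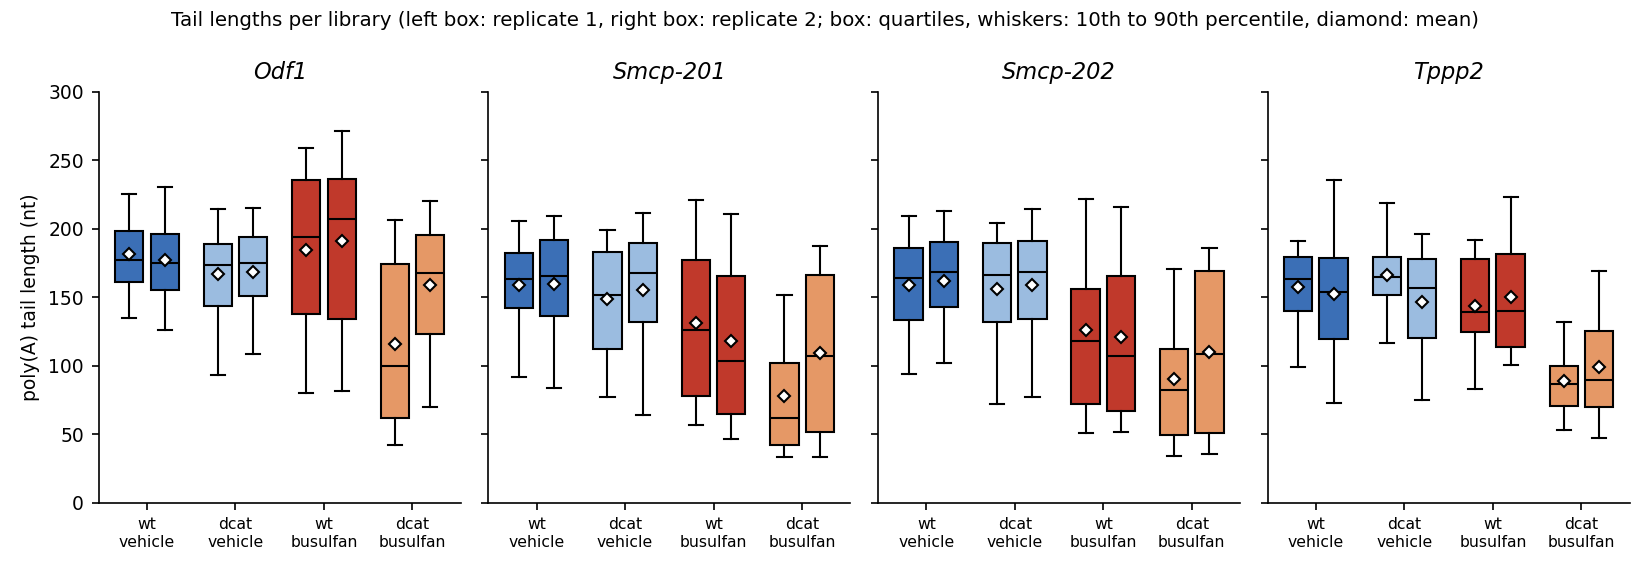
Tail lengths in nt of the 4 contigs in each library, with boxes from the 25th to the 75th percentile, a line at the median, whiskers from the 10th to the 90th percentile and a diamond at the mean; the left box of a pair is replicate 1. Odf1 in wt busulfan reaches a 90th percentile of 259 nt and 271 nt, and every contig has its lowest mean of the 8 libraries in dcat busulfan replicate 1.

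In dcat testes all members had shorter tails after busulfan than after vehicle. Odf1 averaged 116 nt and 159 nt against 167 nt and 168 nt (difference -30.17 nt, SE 10.82), and the lower value came from 41 reads. Smcp-201 averaged 78.3 nt and 109 nt against 149 nt and 156 nt (-58.44 nt, SE 8.81), and Smcp-202 averaged 90.7 nt and 110 nt against 156 nt and 159 nt (-57.06 nt, SE 7.35). Tppp2 averaged 88.6 nt and 99.2 nt against 166 nt and 147 nt (-62.66 nt, SE 10.37). All 4 had both busulfan libraries below both vehicle libraries, as did 63% of the 441 contigs tested, over which the median difference was -17.23 nt. Within the first multiplexed library the differences of Odf1, Smcp-201, Smcp-202 and Tppp2 were -51.11 nt, -70.52 nt, -65.59 nt and -77.78 nt, and within the second they were -9.23 nt, -46.36 nt, -48.52 nt and -47.55 nt. The Odf1 difference was -8.69 nt without dcat busulfan replicate 1 and -51.65 nt without dcat busulfan replicate 2. With centred libraries the differences were -7.39 nt, -35.67 nt, -34.28 nt and -39.89 nt.

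Between genotypes after busulfan the tails of all members were shorter in dcat, which is part of how they were chosen. The difference was -53.03 nt (SE 9.63) for Tppp2, -50.15 nt (SE 10.20) for Odf1, -30.80 nt (SE 8.39) for Smcp-201 and -23.00 nt (SE 7.16) for Smcp-202. Both dcat libraries lay below both wt libraries in all 4, as in 12% of the 1188 contigs tested, and limma called 0.926% of those contigs shorter. The median difference over all 1188 was 2.85 nt. The size of the difference depended on the library. Within the first multiplexed library it was -68.49 nt for Odf1, -52.88 nt for Smcp-201, -35.32 nt for Smcp-202 and -54.91 nt for Tppp2, and within the second it was -31.81 nt, -8.72 nt, -10.68 nt and -51.15 nt. Without dcat busulfan replicate 1 the fitted differences were -28.67 nt for Odf1, -15.25 nt for Smcp-201 and -13.21 nt for Smcp-202, and without dcat busulfan replicate 2 that of Smcp-201 was -46.36 nt. Tppp2 was the member with like values in both multiplexed libraries. The dcat busulfan libraries also differed in their late spermatid markers, at 1.58% of reads in replicate 1 and 3.17% in replicate 2. Both lay above the wt busulfan libraries, at 0.356% and 0.400%, and the part of these differences in the tails was not tested. Mean tails over all reads were alike, at 111 nt and 115 nt in dcat and 112 nt and 115 nt in wt.

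The shapes of the distributions show where the difference lay. For Odf1 the class over 210 nt held 7.32% and 16.7% of reads in dcat after busulfan against 41.5% and 47.6% in wt, and short tails held 48.8% and 24.4% against 18.3% and 20.3%. In dcat replicate 2 the peak of Odf1 stayed in the bin from 150 nt to 180 nt with 27.8% of reads, as after vehicle, while in dcat replicate 1 the highest bin was 60 nt to 90 nt with 24.4%. For Smcp-201 the bin from 30 nt to 60 nt held 41.2% and 23.9% of reads in dcat against 14.5% and 19.7% in wt, and tails over 210 nt held 1.03% and 2.66% against 11.8% and 11.1%. For Tppp2, 0 of 32 reads in each dcat library had a tail over 210 nt, which allows a share of up to 9.38%, and short tails held 81.2% and 71.9% of reads against 25% and 29.5% in wt. Against all contigs of the dcat busulfan group, Odf1 lay above 74.8% of 1469 contigs, whereas Smcp-201, Smcp-202 and Tppp2 lay above 8.44%, 15.5% and 8.65%.

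**Figure D5:**
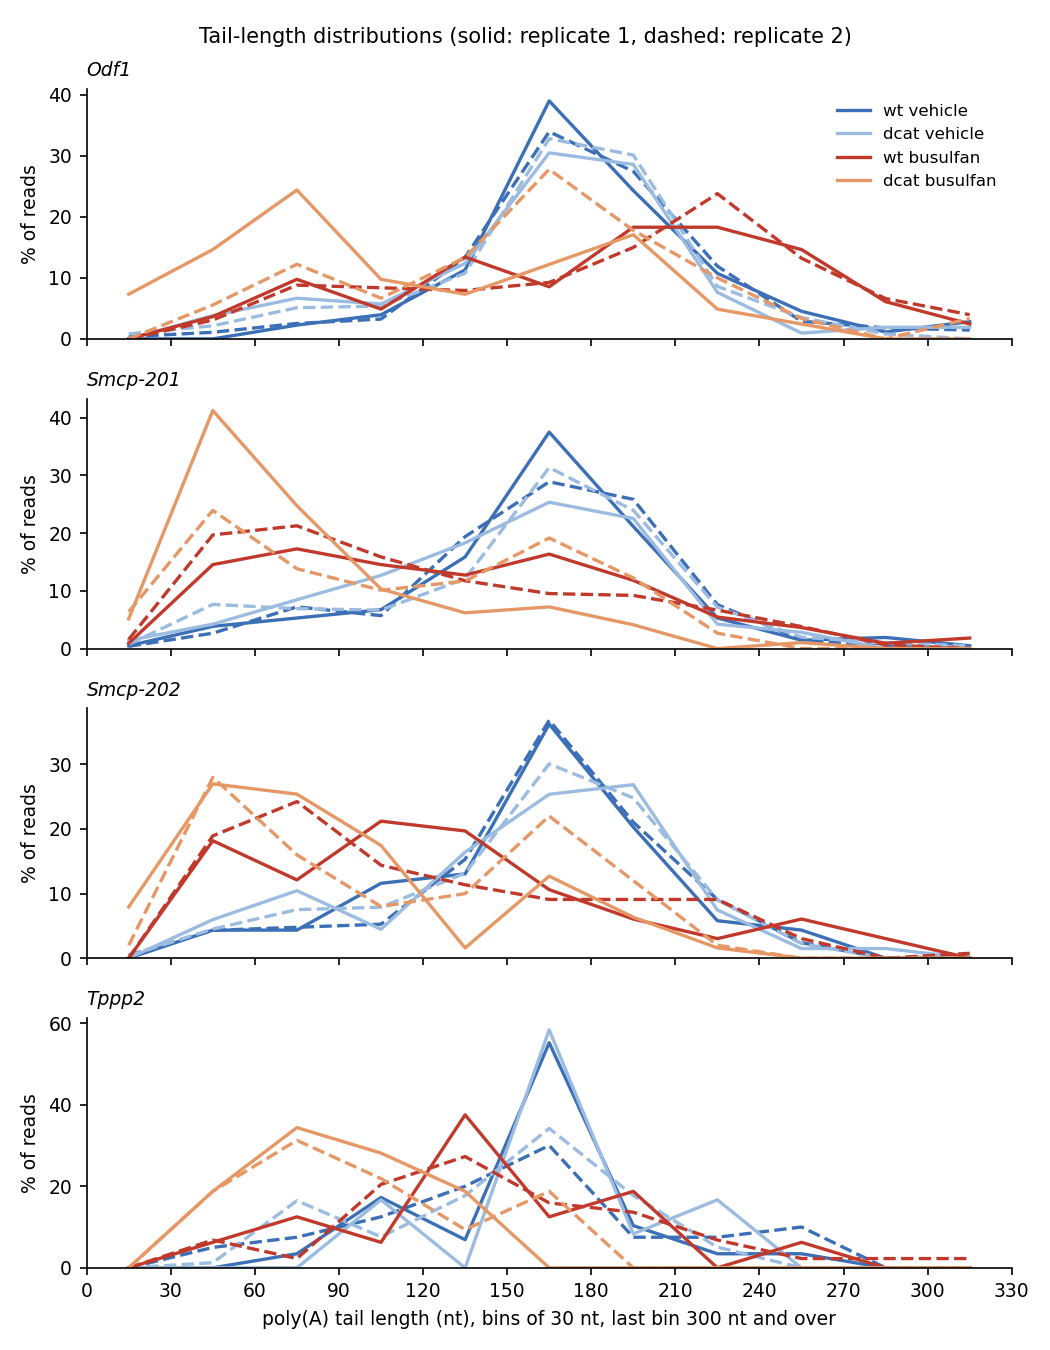
Share of each contig's reads (percent, vertical) by tail length in bins of 30 nt (horizontal), with solid lines for replicate 1 and dashed lines for replicate 2. After vehicle the lines peak between 150 nt and 210 nt, wt busulfan Odf1 reaches furthest right, and dcat busulfan lines rise at 30 nt to 90 nt.

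The effect of genotype on tails was more negative after busulfan than after vehicle for all 4 contigs, which are 3 genes. Over the 339 contigs with enough reads, the median difference of differences was 2.13 nt. For the members it was -54.57 nt (SE 14.18) for Tppp2, -38.73 nt (SE 15.57) for Odf1, -23.59 nt (SE 12.64) for Smcp-201 and -20.09 nt (SE 10.13) for Smcp-202, given without a test. Without dcat busulfan replicate 1 it was -17.25 nt for Odf1, -8.03 nt for Smcp-201 and -10.29 nt for Smcp-202, and without dcat busulfan replicate 2 it was -60.21 nt for Odf1 and -39.14 nt for Smcp-201. For read counts it was -0.76 (SE 0.49) for Odf1, 0.17 (SE 0.48) for Smcp-201, -0.46 (SE 0.54) for Smcp-202 and 0.47 (SE 0.59) for Tppp2 on the log2 scale. Leaving out 1 library moved these between -1.17 and -0.18 for Odf1 (without wt busulfan replicate 1 and 2), between -0.25 and 0.79 for Smcp-201 (the same libraries), between -1.37 and -0.06 for Smcp-202 (without wt vehicle replicate 2 and dcat busulfan replicate 2) and between 0.04 and 1.08 for Tppp2 (without dcat vehicle replicate 1 and wt busulfan replicate 2).

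The Smcp contigs gave like tails wherever they were read. Smcp-202 minus Smcp-201 ran from -5.11 nt in wt busulfan replicate 1 to 12.4 nt in dcat busulfan replicate 1. The share of Smcp reads on Smcp-202 ran from 21.0% (Wilson 95% interval 16.3% to 26.6%) in dcat busulfan replicate 2 to 48.6% (40.4% to 56.8%) in dcat vehicle replicate 1. After vehicle the share was 24.9% and 44.3% for wt and 48.6% and 39.6% for dcat. After busulfan it was 37.5% and 29.5% for wt and 39.4% and 21.0% for dcat, and the wt vehicle values overlapped those of each other group. Over the reads of both contigs, Smcp tails averaged 159 nt and 161 nt in wt vehicle, 152 nt and 157 nt in dcat vehicle, 129 nt and 119 nt in wt busulfan and 83.2 nt and 110 nt in dcat busulfan.

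Of the other sperm tail genes, 0 contigs were called shorter in dcat than in wt after busulfan, and only 13 of the 91 contigs had 10 reads in each of the 4 libraries. Limma called 3 of them longer and 0 shorter in dcat (0.421% and 0.926% of all contigs tested), and their median difference was 13.03 nt beside 2.85 nt overall. The main Oaz3 contig averaged 112 nt and 127 nt in dcat and 68.6 nt and 63.9 nt in wt (difference 53.13 nt, SE 6.90, adjusted p = 0.0015). A second Oaz3 contig differed by 49.98 nt (SE 10.16, adjusted p = 0.0305, not called without dcat busulfan replicate 2), and both are contigs of 1 gene. Meig1 averaged 146 nt and 142 nt in dcat and 111 nt and 108 nt in wt (difference 34.66 nt, SE 5.65, adjusted p = 0.0076). Without a trend in limma 1 of 13 was called, as with at least 20 reads; 5 were called without wt busulfan replicate 1, and the equal-variance test of the methods called 0, as it did among all 1188 contigs. Of the same 13 contigs 7 had shorter tails in wt after busulfan than after vehicle (34.9% of all contigs), with a median of -31.48 nt, and 0 had longer ones (0.759% of all contigs). Pgk2 had the largest difference among the named genes, at -92.89 nt, and Ldhc, at 3.48 nt (adjusted p = 0.673), was the contig nearest to Odf1. In dcat 10 of 22 contigs had shorter tails after busulfan (29.7% of all contigs) and 0 had longer ones (0.227%), with a median of -27.21 nt. That count was 4 without dcat vehicle replicate 1, without dcat vehicle replicate 2 or without dcat busulfan replicate 1. The interaction in tails was called for 1 of 12 contigs, that of Oaz3 (0.885% of all contigs tested), and for 0 without any 1 library other than dcat busulfan replicate 1. After vehicle, 0 of 91 contigs differed between genotypes in reads and 0 of 46 in tails. At an unadjusted p under 0.05 these were 0 and 2, and DESeq2 and the equal-variance test called 0.

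The contigs most like each member over the 8 libraries were sought among the 339 with at least 10 reads in every library. By Pearson correlation of log2 CPM, those nearest to Odf1 were Gstm5 (0.93), Dbil5 (0.91), Uqcc2 (0.91), Arl2bp (0.90) and Ghitm (0.90). Nearest to Smcp-201 were Dbil5 (0.97), contigs of Gstm5 (0.96 and 0.90) and contigs of Oaz3 (0.96 and 0.94). Nearest to Tppp2 were Sord (0.95), St6galnac2 (0.95), Ube2n (0.94), Psmc2 (0.94) and Gabarap (0.92). These libraries fall into vehicle and busulfan sets that differ for most contigs, and the part of that step in each correlation was not tested. By the smallest root mean square difference of mean tails, Smcp-201 was nearest to Smcp-202 (5.72 nt), with which it shares its last exon, followed by Ube2n (7.38 nt), nupr2 (9.43 nt), Pebp1 (12.1 nt) and Aqp11 (12.4 nt). Tppp2 was nearest to Pebp1 (13.7 nt), followed by Smcp-202 (14.3 nt), Smcp-201 (15.2 nt), Atl3 (16.7 nt) and Ube2n (17.2 nt). Odf1 had no contig so near: the closest were Ptgds (21.0 nt), contigs of Ctsl (21.6 nt and 24.9 nt), Insl3 (21.8 nt) and Nudt4 (24.1 nt).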

How the data were processed

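Basecalling by the authors used Guppy. Alignment was by Minimap2 (version 2.20-r1061 in the submitters' processing notes) to GENCODE transcripts of GRCm38, tails were estimated with Nanopolish and barcodes called with Deeplexicon. The authors kept reads with a passing tail and barcode, and contigs with at least 10 reads in both replicates of a group. The deposited table of counts is raw, and the authors' tail table gives nt per read. For 0 pairs of contig and library did counts and tails disagree, and 0 of 176 repeated read names were in member rows. The authors' DESeq2 tables hold fold changes and p-values and were not used.

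All 8 libraries were fitted as 4 groups. Reads were tested with edgeR 4.0.16 (quasi-likelihood, TMM) and mean tails per contig and library with limma 3.58.1 (trend on log2 mean reads, at least 10 reads in each library compared), in R 4.3.3. All tests were two-sided, with Benjamini-Hochberg adjustment over every contig tested and a threshold of 0.05. DESeq2 1.42.0 was an alternative. Both steps were run on simulated data with known changes. The simulated tails varied by read sampling only and not between mice, so that run cannot show how the tail test behaves with 2 mice per group. Wilson intervals and the limit of 3 reads behind a 0 cover counting error only. Adjusted p-values rest on the spread between mice within groups of 2, where an exact permutation test could not go below 0.333. In edgeR and limma that spread was shared over groups and contigs.

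Per the labels, replicates 1 and 2 are 2 multiplexed libraries, each with 1 mouse per group, so the numbers mark a shared library. Deviations of same-numbered samples correlated from -0.15 to 0.34 over pairs of groups for log2 reads (884 contigs) and from 0.01 to 0.06 for tails (339 contigs). Annotation came from GENCODE vM21 on the same build, a later release than that of the alignment. The members and the gene lists were chosen with earlier results of these data known. Named genes were the 6 with most reads per sperm tail list, list contigs called between genotypes (up to 5 per contrast and measure, by size of change), and the 5 contigs most like each member.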

Additional observations from a re-analysis of the deposited data

Results flagged for a closer look

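Odf1 tails moved in opposite directions with busulfan, by 8.56 nt in wt and by -30.2 nt in dcat, with both busulfan libraries above both vehicle libraries in wt and below them in dcat. This difference was not tested, because the choice of Odf1 used it. On log2 lengths the wt value was -0.0042, and the dcat value was -7.39 nt with centred libraries and -8.69 nt without dcat busulfan replicate 1. Spem1, needed for spermatid maturation, had an interaction of genotype and busulfan in read counts of 4.96 on the log2 scale (SE 0.79, edgeR adjusted p = 0.0011), and both wt busulfan libraries held 1 read each, so that the fitted size depends on the prior count; it was not called without wt busulfan replicate 2 (adjusted p = 0.0575). The same holds for Spata6, with an interaction of 4.33 (SE 0.90, adjusted p = 0.0223) and 0 and 2 reads there, not called without either wt vehicle library, either wt busulfan library or dcat busulfan replicate 2. Gapdhs had an interaction of 2.78 (SE 0.62, adjusted p = 0.0409), from 6 and 6 reads in wt and 27 and 43 in dcat after busulfan, called without dcat vehicle replicate 2 or dcat busulfan replicate 1 but not without any of the other 6 libraries. The main Oaz3 contig had an interaction in mean tails of 51.8 nt (SE 9.61, limma adjusted p = 0.0422), called without dcat busulfan replicate 1 but not without any of the other 7 libraries. Its tails after vehicle were 143 nt and 148.5 nt in wt and 145 nt and 149 nt in dcat.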

How the results depend on the processing

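Depth and the number of mice limited the tail results: 13 of 91 sperm tail contigs had enough reads in all 4 busulfan libraries, Tppp2 had 12 to 79 reads per library, and each group had 2 mice. For the members after vehicle, 76 values under alternatives kept their direction and 11 did not. For log2 read counts after vehicle, leaving out 1 library gave -0.27 to 0.0037 for Odf1, -0.42 to 0.80 for Smcp-202 and -0.48 to 0.25 for Tppp2, and the replicate block gave 0.022 for Smcp-202. For tails after vehicle, Tppp2 ran from -8.27 nt to 11.4 nt when 1 library was left out and was -0.488 nt with centred libraries, and Smcp-202 was 1.14 nt with median tails. In the other contrasts, leaving out 1 library gave -0.72 to 0.33 for Smcp-201 counts between genotypes after busulfan, -0.25 to 0.79 for its interaction (-0.011 with the filterByExpr filter) and -0.65 to 0.17 for Tppp2 counts with busulfan in dcat. Tails with busulfan in wt changed sign for Odf1 on log2 lengths (-0.0042) and, with centred libraries, for Tppp2 (15.1 nt) and Tubb4b (3.10 nt). Over all settings, tails between genotypes after busulfan ran from -71.6 to -28.7 nt for Odf1, -46.4 to -15.2 nt for Smcp-201, -32.8 to -13.2 nt for Smcp-202 and -58.3 to -47.7 nt for Tppp2.

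Counts of sperm tail contigs called moved as follows. Read counts between genotypes after busulfan gave 7 with DESeq2 and 1 to 44 when 1 library was left out. With busulfan in dcat, leaving out 1 library gave 35 to 84. For the interaction, RLE scaling gave 11, filterByExpr 8, the replicate block 19 and leaving out 1 library 0 to 38. Tails between genotypes after busulfan gave 1 with at least 20 reads, 1 with no trend, 0 with the equal-variance test of the methods and 3 to 5 when 1 library was left out. That test called 0 of all contigs in each of the 4 tail contrasts it was run on. With busulfan in wt it gave 0, and in dcat it gave 0, centred libraries 4 and leaving out 1 library 4 to 13. The tail interaction gave 0 with median tails, 0 with no trend and 0 to 1 when 1 library was left out. The replicate block moved no other count by over 1.5 times. The cause of these shifts was not tested.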
